A study of Mus musculus with 4 samples.

Results

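The mouse tumor cell lines at rest, LLC and AB1-HA, were compared through the difference between their vehicle arrays. The difference was the level on the LLC vehicle array minus the level on the AB1-HA vehicle array, over gene probes that were well above background on at least 1 of these 2 arrays. This took in 2 of the 4 arrays of the series, 24436 of 39429 gene probes (62.0%) and 13855 of 20106 named genes. AB1-HA is labelled as mesothelioma of strain BALB/c and carries influenza hemagglutinin as a model antigen. LLC, titled 3LL, is the Lewis lung carcinoma line, labelled as lung carcinoma of strain C57BL6. Both were cultured for 24 h with vehicle (its composition is not stated in the labels), and the other 2 arrays hold the same lines after 24 h with interferon gamma (IFN-γ). Each tumor type stands here as 1 line, so tumor type, strain and the history of a line cannot be told apart.

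Mesothelioma arises from the mesothelium that lines the pleura and other body cavities, cells of mesodermal origin that carry both keratins and mesenchymal genes. Lung carcinoma arises from the airway or alveolar epithelium, although long-cultured lines of either origin can lose the markers of their tissue. Transplanted into mice, both lines serve as models of tumor immunity, for which the antigen presentation, chemokine and interferon genes that a tumor cell uses before any cytokine arrives set the starting point.

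Levels are log2 processed signals relative to the 75th percentile of their own array, and differences are LLC minus AB1-HA on the log2 scale. A gene counted as higher in a line at 2-fold or more, a threshold of size, since every group held 1 array and no difference has a replicate check. A gene well above background on only 1 array has a bound, written "at least", against the higher of its own signal and the lowest signal well above background on the other array. That lowest signal was 8.26 on the AB1-HA array and 7.01 on the LLC array, before scaling. It is not a tested detection limit, so "at least" holds under this rule only and is not a guaranteed minimum. A level set against another gene's has no meaning on these probes, so only the 2 lines are compared, gene by gene. Between the arrays, 2277 genes were at least 2-fold higher in LLC (16.4 percent of those with a value) and 2220 were at least 2-fold higher in AB1-HA (16.0 percent), while 9358 lay within 2-fold. Each list count below is to be read beside these 2 shares, and a count near them is no result about the list's members. Of the 13855 genes, 12203 were measured on both arrays, 959 had a bound toward LLC and 693 a bound toward AB1-HA. The median difference over all of them was −0.05 on the log2 scale. At the 16-fold level the counts were 455 and 291. Under normexp background correction, which adds an offset of 50 to every signal and so compresses low ones, the 2-fold counts were 1494 and 1408. Of the genes named here, 49 then fell under 2-fold. Toward LLC these were Bcl2, Bco2, Ccl7, Cd274, Dapk1, Dll1, Dusp5, Foxa1, Fzd9, Gbp6, H2-Eb1, Hfe, Hoxa3, Hoxa5, Ifit1bl2, Irf5, Itga1, Itga2b, Itga5, Itgb4, Mmp1a, Mmp1b, Notch3, Parp14, Phlda2, Ssx9, Tgfb2, Timp3, Trim21 and Wnt11. Toward AB1-HA they were Abat, Btc, Ccl9, Cldn6, Dmrta1, Elavl2, Esam, Fthl17f, Fzd7, Gbp2b, Hoxd3, Ifit3b, Il15, Junb, Krt14, Krt86, Slc16a12, Tnfrsf13c and Zbtb16. Over repeat spots of 1 probe, the difference between the 2 vehicle arrays at the same spot position had a median SD of 0.063. This covers spot noise that the arrays do not share, but neither culture nor labelling. Actb (−0.21), Gapdh (−0.20) and Ppia (−0.10) differed by little, and of 19 housekeeping genes 17 lay within 2-fold. Calls depended on signal. Among the 4068 measured genes with the highest mean levels, 6.66% were at least 2-fold higher in LLC and 8.68% in AB1-HA. Among the 4068 with the lowest, these shares were 18.7% and 20.6%. Genes with near-identical copies (the Rhox2, Ssx, Slx, Xlr, H2, Gbp, Oas, Ifit, Ifna, Apol9, Ifi20x, Akr1c, Olfr, Mage and H60 families) are uncertain, since a probe can bind RNA of a copy. Probes were not checked for sequence differences between the 2 strains, which can change the signal of a probe without a change in RNA.

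**Figure D1:**
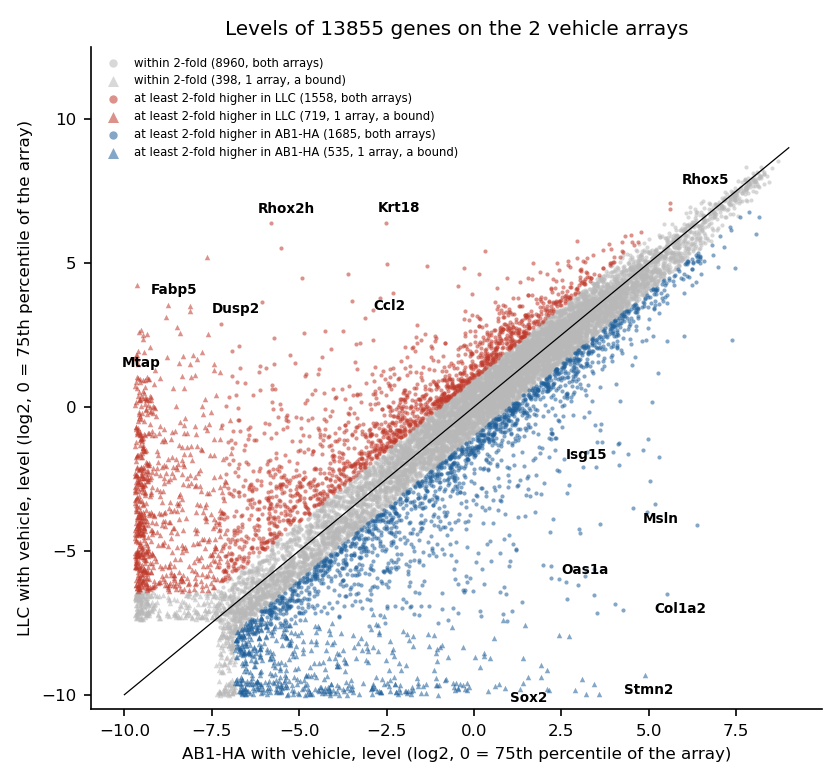
Level of each of 13855 genes on the AB1-HA vehicle array (x axis) and the LLC vehicle array (y axis), both as log2 signal relative to the array's 75th percentile. Circles are genes measured on both arrays and triangles genes with a bound, and the line marks equal levels. Col1a2, Msln and Stmn2 lie far on the AB1-HA side, Krt18, Rhox2h and Dusp2 far on the LLC side, and Rhox5 on the line.

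The tissue labels were first set against markers of each lineage. Of 18 mesothelial markers with a probe, 10 had a value, of which 5 were higher in AB1-HA and 4 in LLC. Mesothelin (Msln), the surface antigen that gives mesothelioma its usual marker, was at 5.19 in AB1-HA and −3.37 in LLC, a 378-fold difference. Pdpn, the podoplanin of mesothelial and lymphatic surfaces, was at 2.70 in AB1-HA but below background in LLC, at least 1485-fold apart, and by another probe −5.29. Tbx18, Krt19 and Cdh2 were also higher in AB1-HA (−5.08, −1.69 and −1.59). Krt8, Krt18, Bnc1 and Podxl stood on the LLC side. Wt1, Calb2, Upk3b, Upk1b and Lrrn4, which define mature mesothelium, were not well above background in either line. So of the defining mesothelial genes, AB1-HA carried Msln and Pdpn and not these 5.

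Of 19 lung epithelial markers with a probe, 10 had a value, 3 higher in LLC and 2 in AB1-HA. Nkx2-1, the surfactant genes Sftpa1, Sftpb and Sftpc, and Muc1 were not well above background in either line. In LLC, Foxa2, a pioneer transcription factor of endoderm, was at 2.35 and at least 852-fold higher than in AB1-HA. Hopx and Foxa1 were at least 91.8-fold and 10.2-fold higher in LLC. The alveolar genes Napsa and Aqp5 were on the other side, at −4.90 and −2.65. Cdh1 and Epcam, the E-cadherin and adhesion molecule that define epithelium, were not well above background in either line. The club cell gene Scgb1a1 (0.15) was measured on both arrays and lay within 2-fold. The surfactant gene Sftpd and Ager, Abca3 and Lamp3 also had a value and lay within 2-fold. Of the 6 lung markers measured on both arrays, 0 were higher in LLC and 2 in AB1-HA. LLC thus carried Foxa2 and the Krt8 and Krt18 pair without Cdh1 or Epcam. Of 26 mesenchymal and fibroblast markers with a probe, 22 had a value, 6 higher in LLC, 4 in AB1-HA and 12 within 2-fold. Vim was at 6.84 in AB1-HA and 6.68 in LLC, and Zeb1, Zeb2, Fn1 and Sparc also lay within 2-fold. Lum, Fap, Postn and Tcf21 were not well above background in either line.

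Markers of cells that could have come along in culture were mostly undetected. Of 17 leukocyte markers with a probe, 11 were not well above background in either line, Ptprc, Adgre1 and Spi1 among them, and 1 of the other 6 was called. This was Csf1r, the receptor of macrophage colony-stimulating factor, at −2.03, for which another probe gave 0.29. Of 14 endothelial markers, 10 were below background in both, Cdh5 and Vwf among them. Of the other 4, Flt1, a receptor of vascular endothelial growth factor, was 31.1-fold higher in LLC, whereas a second such receptor, Kdr (−1.13, but 0.067 as the mean over its probes), and the adhesion molecule Esam (−2.02) were higher in AB1-HA and Pecam1 (−0.50) lay within 2-fold.

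The 15 largest measured differences toward LLC began with Rhox2h and Rhox2e, reproductive homeobox genes of the X chromosome. Rhox2h was at −5.81 in AB1-HA and 6.38 in LLC, a 4681-fold difference, and the near-identical Rhox2e (2107-fold) and Rhox2c (at least 6109-fold) cannot be separated from it on probes. Dusp2, a phosphatase that switches off MAP kinases in the nucleus, was at −7.25 and 2.89, 1132-fold higher in LLC. Krt18, a keratin of simple epithelia, was at −2.53 and 6.39, 485-fold higher in LLC. The receptor Fgfr1 was 299.7-fold higher by the probe used, while another of its probes gave only 0.48 on the log2 scale. Itga7, an integrin chain that binds laminin, was at −5.73 and 2.41. Sox9, a transcription factor of progenitor cells in lung and cartilage, was at −6.79 and 0.87. The rest were Ydjc (9.72), the TBK1 adaptor Tbkbp1 (9.41), the protease inhibitor Spink2 (8.88), the RNA-binding Pcbp3 (8.83), the kinase Camk1d (8.04), the mitochondrial acyl-CoA synthetase Acsf3 (8.01), the retinoic acid binder Crabp1 (7.55) and the teneurin Tenm4 (7.46).

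Among genes with a signal in LLC alone, 2 lipid carriers stood out. Rbp4, the carrier of retinol in blood, was at 4.23 and Fabp5, a fatty acid binding protein, at 3.55, at least 3126-fold and 1962-fold above AB1-HA. Mmp3, a secreted metalloproteinase that cuts many matrix proteins, was at 3.34 and at least 1688-fold higher. Bounds of the same order were found for Egfl7 (10.87), Nrn1 (10.51), Slc22a23 (10.06), the Golgi GTPase Rab6b (9.99), the chloride channel Ano1 (9.95), Emb (9.93) and the homeobox gene Dlx2 (9.93). Mbp had a bound of 10.17 by 1 probe, while another of its probes was measured on both arrays.

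Toward AB1-HA, the largest measured difference was that of Col1a2, which encodes the second chain of type I collagen. It was at 5.51 in AB1-HA and −6.51 in LLC, a 4164-fold difference. Its partner Col1a1 was at 3.19 and −5.66, 462-fold higher in AB1-HA. Sparcl1, a matrix-associated glycoprotein, was 2539-fold higher in AB1-HA, and Mgp, an inhibitor of calcification, 996-fold. Ccn2, a secreted target of TGF-β and YAP also called connective tissue growth factor, was at 4.95 and −3.67, 393-fold higher in AB1-HA. The chitinase-like protein Chil3 was 1425-fold higher. Among the 15 were 2 interferon-inducible genes, Ifi27l2a at 3.43 and −5.64 and Oasl1 at 2.43 and −5.998. The remaining genes were Slc16a11 (−10.87), the olfactory receptor Olfr1221 (−10.67), the brush border protocadherin Cdhr5 (−9.36), Pianp (−9.16), Wfdc3 (−9.05) and Tmem171 (−8.70).

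With a signal in AB1-HA alone, Stmn2, a microtubule regulator of neurons, was at 4.87 and at least 6687-fold above LLC. Ifi202b, a DNA-binding protein of the interferon-inducible Ifi20x family, was at 3.59 and at least 2737-fold higher. Hoxd13, the last gene of its Hox cluster, was at 3.08 and at least 1924-fold higher. H60b, a ligand of the natural killer cell receptor NKG2D, was at 2.89 and at least 1685-fold higher. Others were Itgbl1 (−11.27), the folate hydrolase Ggh (−11.03), the aspartoacylase Aspa (−10.25), Tprg (−9.98), Tusc1 (−9.92), Olfr424 (−9.91) and the galectin Lgals7 (−9.75).

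**Figure D2:**
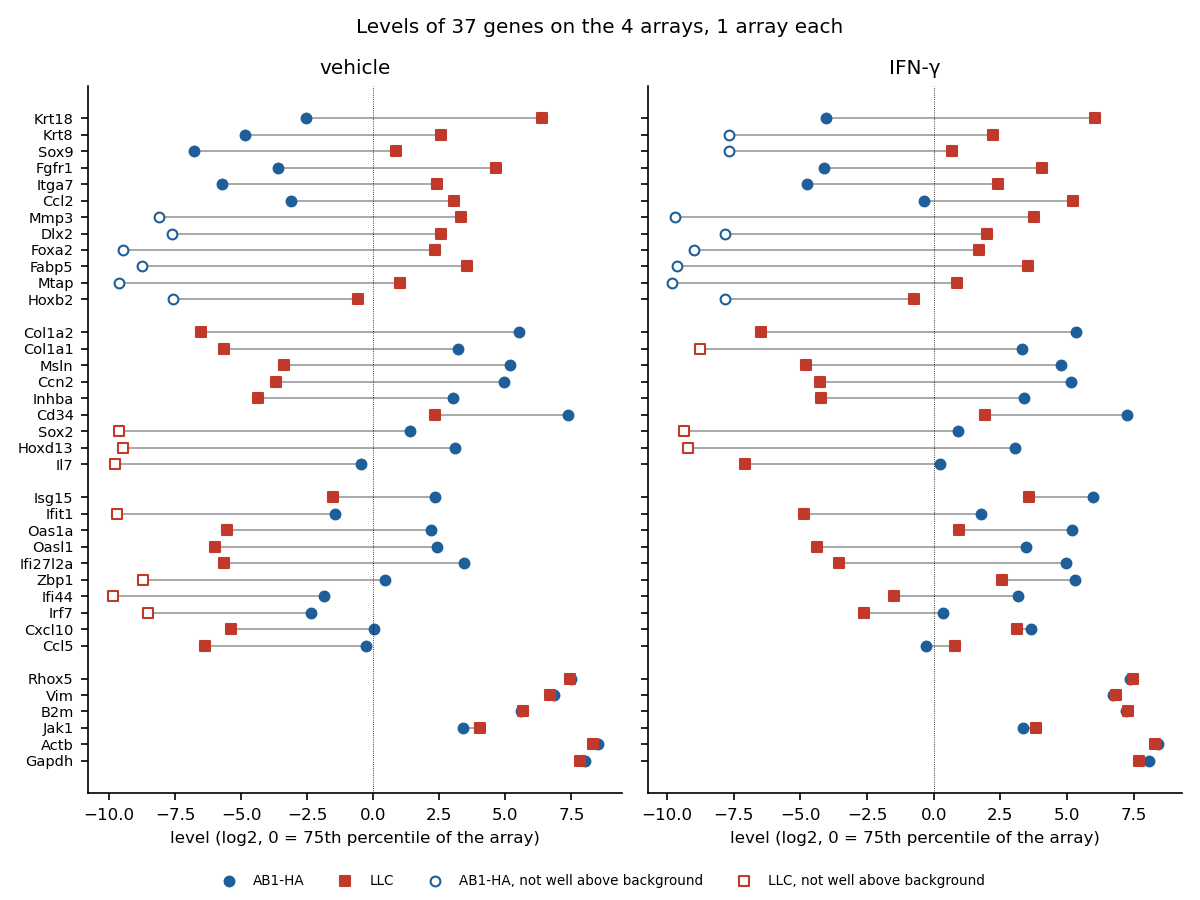
Levels of 37 genes in AB1-HA (circles) and LLC (squares) on the vehicle arrays (left) and the IFN-γ arrays (right), as log2 signal relative to each array's 75th percentile, 1 array per point. Open symbols were not well above background. The lines stay apart in the upper 2 blocks on both pairs, while Cxcl10 lies within 2-fold on the IFN-γ arrays.

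Of 27 collagen genes with a value, 10 were higher in LLC and 11 in AB1-HA. Type I collagen, described above, was the extreme on the AB1-HA side. Col5a2 and Col11a1, which co-assemble with type I fibrils, were at least 53.6-fold and 48.7-fold higher in AB1-HA. Col18a1, a basement membrane collagen and the source of endostatin, was at 0.32 in AB1-HA and 5.401 in LLC, 33.8-fold higher in LLC. Col4a1 (2.79) and Col4a2 (2.39), the common network collagen of basement membranes, were higher in LLC, and Col4a5 (−2.60) in AB1-HA. Col7a1 (4.30), Col5a3 (3.87), Col6a1 (2.02), Col6a2 (3.09) and Col5a1 (1.498) stood on the LLC side, as did Col2a1 by a bound of 4.17 and Col16a1 at 1.86 by the probe used and −0.14 by another.

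Of 14 laminin and basement membrane genes with a value, 7 were higher in LLC and 2 in AB1-HA. Lama5, the alpha chain of laminin-511, was at 0.13 in AB1-HA and 4.62 in LLC, 22.4-fold higher. Nid1 (2.75), Agrn (2.75), the perlecan gene Hspg2 (2.36), Lamb1 (1.77) and Lamc1 (1.07) were higher in LLC as well. The integrins, the receptors that bind these proteins, were called in LLC alone: 10 of 16 with a value were higher there and 0 in AB1-HA. Beside Itga7 they were the leukocyte integrin chains Itgb2 (3.72) and Itgb7 (3.31), Itgb3 (2.91), the laminin-binding Itga6 (1.62) and Itgb4 (1.45), the fibronectin receptor chain Itga5 (1.17), and bounds for Itgax (5.11), Itga1 (2.997) and Itga2b (1.18). The median of the 16 was 1.32, beside −0.05 over all genes, and 1.17 over the 13 measured on both arrays. Under normexp background correction 6 were higher in LLC and the median was 0.81. Without a background filter the median was 0.22, beside −0.24 over all genes.

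Among 41 matrix glycoprotein and proteoglycan genes, 16 were higher in AB1-HA and 8 in LLC. Mfap5, a protein of elastin-associated microfibrils, was at least 859-fold higher, and the crosslinking enzyme Loxl1 was at 1.01 and −5.55, 94.2-fold higher. The fibulins Fbln2 (−4.37) and Fbln5 (−3.39), Efemp1 (−3.27), thrombospondin Thbs1 (−4.88) and osteopontin Spp1 (−1.89) followed. Fbln1 went the other way, at least 154-fold higher in LLC, with Has2 (4.85 by a bound), which makes hyaluronan, and Matn2 (3.03). Of 33 matrix proteases and their inhibitors, 11 were higher in LLC and 6 in AB1-HA. Besides Mmp3, the stromelysin Mmp10 was at −6.89 and −1.84, 33.1-fold higher in LLC, and the collagenase Mmp13 at least 104-fold. The plasminogen activators Plau (2.29) and Plat (2.92) were higher in LLC. Timp1, an inhibitor of metalloproteinases, was higher in AB1-HA (−1.75) and Timp3 in LLC by a bound (3.43), which was 0.34 under normexp.

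Among 15 keratins with a value, 8 were higher in AB1-HA and 3 in LLC. Krt8, which pairs with Krt18 in simple epithelia, was at −4.86 in AB1-HA and 2.57 in LLC, 172-fold higher in LLC. The keratins on the AB1-HA side were others: Krt20, a keratin of gut and urothelium, by a bound of −8.01, Krt15 by one of −4.50, Krt80 (−2.95), Krt86 (−2.28), Krt19 (−1.69) and Krt14 (−1.05). Krt13 was at −6.37 by the probe used and at 0.81 by another. Of 10 cadherins with a value, 5 were higher in AB1-HA, N-cadherin (Cdh2) included, and 2 in LLC, where Cdh13 had a bound of 7.90. Junction genes were called evenly, 6 of 23 in each direction, with occludin Ocln (−5.84 in AB1-HA and −1.84 in LLC) and the desmosomal Pkp2 (a difference of 3.09) higher in LLC and F11r (−3.47) and Cldn6 (−3.92 by a bound) higher in AB1-HA. Acta2, the smooth muscle actin of myofibroblasts, was 13.8-fold higher in LLC, and the PDGF receptors went opposite ways, Pdgfra at 2.53 and Pdgfrb at −3.07.

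The Hox genes, homeobox genes that set position along the body axis, were higher in either line. Of 31 with a value, 13 were higher in AB1-HA and 6 in LLC. Those higher in LLC included Hoxb2 at −0.59, at least 111-fold above AB1-HA, Hoxa2 (3.52), Hoxa5 (1.34) and Hoxa3 (1.03), and Hoxb13 (4.42 by a bound). In AB1-HA, Hoxa9 (−5.88 by a bound), Hoxa10 (−3.02) and Hoxa11 (−2.48) were higher in the A cluster. Hoxc9 was at 0.99 and −4.47, 44.1-fold higher in AB1-HA, with Hoxc10 (−6.73 by a bound), Hoxc6 (−3.27) and Hoxc4 (−2.08). In the D cluster, Hoxd13 and Hoxd11 (−7.31) were bounds and Hoxd3 was at −1.81. Hoxb6 (−2.69) and Hoxb7 (−2.28) were higher in AB1-HA and lie in the same cluster as Hoxb2.

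Of 88 other lineage transcription factors with a value, 32 were higher in LLC and 19 in AB1-HA. The LLC side included Foxa2 and Sox9, described above. Dlx2 was at 2.55 and at least 975-fold above AB1-HA, with bounds for Dlx4 (6.53), Pax3 (6.59), Irx2 (6.44), Tfap2c (5.57), Eya2 (5.22), Sox11 (5.04), Tbx4 (4.95) and Zic2 (4.16). Measured on both arrays, Osr1 (3.48), the ETS factor Etv1 (3.60), the Hox cofactor Meis1 (3.04) and Tfap2a (2.01) were higher in LLC. On the AB1-HA side, Sox2, a factor of pluripotent, neural and airway progenitor cells, was at 1.39 and at least 596-fold above LLC. Foxc2 (−5.14), Foxf1 (−3.54), Gata3 (−4.83), Gata4 (−2.33), Tbx18 (−5.08), Klf5 (−2.55) and Emx2 (−4.64 by a bound) were also higher in AB1-HA. Neural and neuroendocrine genes showed both directions, 7 of 16 with a value higher in LLC and 5 in AB1-HA. Nestin (Nes, 2.55), the neurofilament Nefl (3.75) and Insm1 (4.999 by a bound) were higher in LLC. Gap43, a protein of growing axons, was at 4.41 and −1.65, 66.5-fold higher in AB1-HA. The adhesion molecule Ncam1 was at least 171-fold higher in LLC by the probe used, while another probe gave 0.21 on the log2 scale.

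In the Wnt pathway, 15 of 35 genes with a value were higher in LLC and 8 in AB1-HA. Wnt5a, a ligand best known for signalling without β-catenin, was at −6.56 in AB1-HA and −1.33 in LLC, 37.4-fold higher, and Wnt5b (3.56), Wnt11 (2.997) and the Wnt5a receptor Ror2 (6.88 by a bound) were higher too. Wnt7b (6.53) and the repressor Tcf7l1 (7.66) had bounds on the same side, and the secreted Dkk3 had one toward AB1-HA (−7.25). Wnt10a, a ligand of the β-catenin branch, was at 0.87 and −6.26, 140.3-fold higher in AB1-HA, with Wnt10b (−3.58). Axin2, which β-catenin induces as its own brake, had a bound of −5.31 toward AB1-HA, and another probe gave −2.02. Frizzled receptors were higher in either line, Fzd6 (6.398), Fzd1 (3.12) and Fzd9 (3.07) as bounds toward LLC and Fzd2 (−2.17, by another probe 0.58) and Fzd7 (−1.11) toward AB1-HA.

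Of 51 genes of the TGF-β and BMP pathway, 16 were higher in LLC and 12 in AB1-HA. Inhba, the subunit of activin A, was at 3.02 in AB1-HA and −4.38 in LLC, 168-fold higher in AB1-HA. Its antagonist follistatin (Fst) was at 3.96 and −1.58, 46.4-fold higher in the same line. Bmp2 (−3.36), Gdf15 (−3.56) and the BMP antagonist Grem1 (−1.996) were higher in AB1-HA. In LLC, Bmp4 (5.38) and Tgfb2 (3.73) had bounds, and the coreceptors Eng (3.76) and Tgfbr3 (2.28) and the BMP targets Id1 (1.22) and Id3 (1.99) were measured as higher.

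Among 33 receptor tyrosine kinases with a value, 10 were higher in LLC and 7 in AB1-HA. Egfr, the receptor of epidermal growth factor, was at −3.36 in AB1-HA and 1.31 in LLC, 25.5-fold higher in LLC. Of its ligands, Areg was higher in LLC (2.55), Btc in AB1-HA (−1.01), and Ereg lay within 2-fold (−0.33). Met (0.20) and Axl (0.62), receptors of HGF and GAS6, were also within 2-fold. Alk had a bound of −4.45 toward AB1-HA. Among 51 growth and guidance factors, 17 were higher in LLC and 15 in AB1-HA. Gdnf (at least 209.8-fold), the lymphatic factor Vegfc (at least 140.2-fold), Gas6 (at least 41.6-fold) and pleiotrophin Ptn (44.0-fold) were higher in LLC. The axon repellents Slit2 (281-fold) and Slit3 (152-fold), Sema3c (151-fold) and Nrg1 (15.2-fold) were higher in AB1-HA. In the Notch and Hedgehog lists, the ligands Jag2 (4.18) and Dll1 (3.79) and the receptor Notch3 (4.001) had bounds toward LLC, while Jag1 (−2.79) and the target Hey1 (−6.09 by a bound) were higher in AB1-HA.

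The genes that ERK, AP-1 and Hippo signalling switch on did not move as a block, with 9 of 37 higher in LLC and 10 in AB1-HA. The ERK feedback genes Spry1 (6.64 by a bound), Dusp6 (1.56), Dusp5 (1.15), Spry4 (1.34) and Spred1 (1.20) were higher in LLC. The immediate-early genes Egr1 (−2.51), Fosb (−2.25) and Junb (−1.38) were higher in AB1-HA. So were the YAP targets Ccn2, Ccn1 (−1.15), Ankrd1 (−3.49) and Ajuba (−1.33).

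Of 36 cancer driver genes with a value, 6 were higher in LLC and 5 in AB1-HA, close to the 16.4 and 16.0 percent over all genes. Nras (−0.45), Trp53 (0.51), Stk11 (−0.29), Bap1 (−0.67) and Ccnd1 (0.27) lay within 2-fold. Myc was at 2.36 in AB1-HA and 4.36 in LLC, 4.02-fold higher in LLC. Nf2, the merlin tumor suppressor that mesotheliomas often lose, was at 1.23 and −0.43, so 3.15-fold higher in AB1-HA. Rb1 (−1.10), Hras (−1.64) and Lats1 (−1.88) were also higher in AB1-HA. Cdkn2a and Cdkn2b, the cell cycle inhibitors next to each other on chromosome 4, were below the background threshold on each of the 4 arrays. Mtap, the methylthioadenosine phosphorylase that precedes them in the RefSeq order of genes, was at 1.01 in LLC but below background in AB1-HA, at least 337-fold apart.

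On the other side of Cdkn2b the pattern was the reverse. Dmrta1 (−2.49), Elavl2 (−4.35) and Tusc1 (−9.92) were above background in AB1-HA and not in LLC, so all 3 are bounds. Between them, Zfp352 was measured on both arrays (1.57) and Izumo3 was below background on both. Beyond this stretch, Klhl9 (0.37) on the Mtap side and Caap1 (−0.48) and Plaa (−0.72) past Tusc1 were measured in both lines and within 2-fold. On the IFN-γ arrays these were bounds again, Mtap at 8.45, Dmrta1 at −1.87, Elavl2 at −4.07 and Tusc1 at −9.44. DNA was not measured, and no statement on copy number follows from these signals.

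Of 24 p53 targets with a value, 6 were higher in LLC and 2 in AB1-HA. Noxa (Pmaip1), a BH3-only death gene, was at −0.77 in LLC and below background in AB1-HA, at least 97.7-fold apart. Cdkn1a, the p21 inhibitor, was higher in LLC (1.29), and Mdm2, the ligase that degrades p53, lay within 2-fold (−0.0029). Of 42 cell cycle genes 37 lay within 2-fold, with Mki67 at −0.09 and Top2a at 0.44. Over all genes with a value this share was 67.5%, and the list was not matched for signal level, on which calls depended. Foxm1 (−1.47) and Aurkb (−1.72) were higher in AB1-HA and Mcm3 (1.22) in LLC.

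Many of the interferon-inducible antiviral genes were higher in AB1-HA before any cytokine was added. Interferons act on such genes through STAT and IRF proteins that bind short promoter elements, among them the interferon-stimulated response element (ISRE), whose core holds GAAA repeats. Of 55 antiviral and GTPase genes with a value, 32 reached 2-fold toward AB1-HA and 3 toward LLC, with a median of −1.57 beside −0.05 over all genes. Under normexp these counts were 29 and 0 of 53. The promoters of 5 members are shown because these genes differed and hold ISRE-like letters close to the start site, 150 bases each up to the base before the start, from RefSeq with build GRCm38.p6. Capitals mark GAAANNGAAA on either strand, where N is any base. On the opposite strand it reads as its reverse complement, and matches may overlap.
Isg15 (chr4:156200819-156200968, minus strand): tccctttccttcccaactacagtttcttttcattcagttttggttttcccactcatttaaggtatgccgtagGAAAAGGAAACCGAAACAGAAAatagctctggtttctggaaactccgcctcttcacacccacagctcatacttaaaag
Ifit1 (chr19:34640739-34640888, plus strand): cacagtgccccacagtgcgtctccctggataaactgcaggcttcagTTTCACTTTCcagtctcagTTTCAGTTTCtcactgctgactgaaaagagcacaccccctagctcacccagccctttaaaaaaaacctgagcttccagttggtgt
Ifit3 (chr19:34583379-34583528, plus strand): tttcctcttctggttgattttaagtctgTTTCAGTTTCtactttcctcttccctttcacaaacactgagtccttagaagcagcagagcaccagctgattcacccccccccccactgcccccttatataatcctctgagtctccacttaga
Oas1a (chr5:120907526-120907675, minus strand): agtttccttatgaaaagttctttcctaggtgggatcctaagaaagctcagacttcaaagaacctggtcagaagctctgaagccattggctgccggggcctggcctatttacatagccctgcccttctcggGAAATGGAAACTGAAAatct
Rsad2 (chr12:26456453-26456602, minus strand): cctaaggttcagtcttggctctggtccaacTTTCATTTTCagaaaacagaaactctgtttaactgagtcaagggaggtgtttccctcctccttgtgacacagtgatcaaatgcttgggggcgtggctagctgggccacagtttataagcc
In Isg15 the 3 matches overlap in 1 run that begins 78 bases before the start. In Ifit1 they begin 104 and 85 bases before it, in Ifit3 122, in Oas1a 20 and 14, and in Rsad2 120.

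Among these genes, Isg15, the ubiquitin-like protein that interferon attaches to other proteins, was at 2.33 in AB1-HA and −1.51 in LLC, 14.3-fold higher in AB1-HA. Oas1a, which senses double-stranded RNA, was at 2.20 and −5.52, 210.4-fold higher. Ifit1, which binds viral RNA, was at −1.45 in AB1-HA and below background in LLC, at least 83.4-fold apart. All 3 were higher in AB1-HA. Ifit3 (−3.28) and, by a bound, the antiviral enzyme viperin (Rsad2, −3.72) stood on the same side.

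The other members higher in AB1-HA included more nucleic acid sensors and effectors. Oasl1, a member of the OAS family, was 344-fold higher and Oasl2 at least 103-fold. Zbp1, a sensor of Z-form nucleic acid that can start necroptosis, was at least 313-fold higher by the probe used, and by another probe −0.99 on the log2 scale. The RNA sensor Ifih1 (at least 30.4-fold), Ifi44 (at least 62.1-fold) and Oas2 (at least 38.0-fold) were below background in LLC. Apol9a (−6.15), Apol9b (−6.52), Ifi47 (−5.07), Trim30a (−4.23), Rtp4 (−3.32), Xaf1 (−2.95) and Ifi27 (−2.89) were measured on both arrays. Smaller differences were those of the kinase Eif2ak2, or PKR (−1.44), the DNA sensors Aim2 (−1.83) and Ifi204 (−2.29), and tetherin (Bst2, −1.13).

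The 3 members higher in LLC were Trim21 (1.29), Parp14 (1.17) and Gbp6 (1.54, though −2.55 by another probe). Another 20 members lay within 2-fold. Of these, some were picked for naming after their values were seen, namely the GTPases Igtp (0.09), Irgm1 (−0.52) and Irgm2 (0.42), Ifitm3 (−0.30) and the RNA sensor Ddx58 (−0.59). Ifit2, next to Ifit3 on chromosome 19, was at 0.31. The difference therefore did not run through all inducible genes. The type I interferon gene Ifnb1 was not well above background on either vehicle array, nor were Ifna4, Ifna7 and Ifne. Other type I interferon genes, Ifnab (−0.86), Ifna11 (−0.73), Ifna5 (−0.88) and Ifna1 (−0.71), were above background on both and within 2-fold. Their levels ran from −4.38 (Ifnab in AB1-HA) down to −6.85 (Ifna11 in LLC). These genes are alike and a probe can bind RNA of a copy, so which of them gave signal was not tested.

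Of 34 receptor and signalling genes upstream, 7 were higher in LLC and 4 in AB1-HA, a share near the 32.5% of all genes that passed 2-fold in either direction. The receptor chains Ifngr1 (0.46) and Ifngr2 (0.64), the kinases Jak1 (0.64) and Jak2 (0.02), Stat2 (0.22), Irf1 (0.24) and the inhibitor Socs1 (0.89) lay within 2-fold. Ifnar1 (1.09, by another probe −0.49) and Stat3 (1.03) were just past it toward LLC. Higher in AB1-HA were Irf7, the factor that amplifies type I interferon, by a bound of −5.49, Irf9, the DNA-binding part of the ISGF3 complex (−1.49), Batf2 (−3.13) and the ISG15 protease Usp18, a brake on the type I receptor (−4.03). Irf8 and Irf5, factors known from myeloid cells, were above background in LLC alone, at −0.30 and −2.92, with bounds of 7.08 and 4.47. Among pattern sensors, Cgas, which detects cytosolic DNA, was at 1.20 and −4.95, 71.0-fold higher in AB1-HA, and −2.37 by another probe. Tlr2 was higher in LLC (3.45), and Tlr4 (0.30) lay within 2-fold.

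A search of all promoter windows put the motif in context. RefSeq windows from 250 bases before to 50 after the start were matched for 11023 of the 13855 genes, and 3.68% of these held GAAANNGAAA. Among the interferon-inducible genes higher in AB1-HA, 17 of 26 windows held it (65.4%), and among the rest of that list 10 of 17 (58.8%). Members that were not higher in AB1-HA thus held the motif too. Genes higher in AB1-HA by a bound had a median of 6 CpG dinucleotides per window, against 19.5 over all genes with a value. The median was 16 for bounds toward LLC, and 7 over all 27025 genes with a window, detected here or not. TATAAA on the coding strand was found in 16.9% of the windows of those AB1-HA genes and in 8.71% of those with a bound toward LLC. The share was 6.60% over all genes with a value and 9.77% over all genes with a window. Each match describes letters in a window and not a used site.

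Of 34 MHC class I presentation genes, 11 were higher in AB1-HA and 3 in LLC. The light chain B2m (0.06), the heavy chain H2-D1 (−0.21) and Tapbp (0.01) lay within 2-fold, and H2-K1 was at 4.55 in AB1-HA and 2.999 in LLC, 2.93-fold higher in AB1-HA. The inducible proteasome subunits Psmb8 (−3.38) and Psmb9 (−1.75) and the peptide transporter Tap1 (−1.91) were also higher in AB1-HA. The lipid-presenting Cd1d1 was above background in LLC alone (at least 61.9-fold), and Mr1, which presents vitamin metabolites, was higher there (2.61). Of class II, H2-Aa, H2-Ab1 and Ciita were below background in both lines, while H2-DMb1 was at least 77.9-fold higher in LLC.

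Ligands that T and natural killer cells read went both ways. Cd274, which encodes PD-L1, was at −5.66 in AB1-HA and −3.45 in LLC, 4.66-fold higher in LLC. Its signals were low, and under normexp the difference was 0.37 on the log2 scale, below 2-fold. Icosl (6.29) and Vsir (4.77) had bounds toward LLC, and so had Nt5e, the ectoenzyme CD73 (3.33). The costimulatory ligand Tnfsf9 (−1.99) and the receptor ligand Pvr (−1.43) were higher in AB1-HA. Of the NKG2D ligands, H60b and Ulbp1 (−4.66) were on the AB1-HA side and Raet1e (1.87) on the LLC side. The adhesion ligand Vcam1 was higher in LLC (2.21).

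Of 19 chemokines with a value, 8 were higher in AB1-HA and 6 in LLC. Ccl2, which draws monocytes, was at −3.13 in AB1-HA and 3.07 in LLC, 73.4-fold higher in LLC, with its neighbour Ccl7 (3.90 by a bound). Ccl5, which draws T cells, was at −0.27 and −6.38, 69.0-fold higher in AB1-HA. Cxcl10, an interferon-inducible ligand of CXCR3, was at 0.04 and −5.39, 43.2-fold higher in AB1-HA. Ccl17 (−4.97) and Ccl9 (−2.27) were higher in AB1-HA, and the neutrophil chemokines Cxcl1 (0.99) and Cxcl5 (0.37) within 2-fold.

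Among 28 cytokines, 9 were higher in AB1-HA and 5 in LLC. Il7, a survival factor of lymphocytes, was at −0.45 in AB1-HA and below background in LLC, at least 167-fold apart, and Il15 (−4.39 by a bound), Tslp (−4.64) and Tnfsf11 (−5.46) were higher in AB1-HA too. Il11 (3.83), Il34 (2.49) and Il18 (5.30 by a bound) were higher in LLC. Of the receptors, 12 of 40 were higher in AB1-HA and 11 in LLC. The common gamma chain Il2rg (−6.81) and Tnfrsf1b (−5.87) had bounds toward AB1-HA, and the oncostatin receptor Osmr (4.04) was higher in LLC. Il4ra was at least 200.3-fold higher in LLC by the probe used, while another probe gave −0.06.

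Of 33 cell death genes, 24 lay within 2-fold, as did 67.5% of all genes with a value. Another 7 were higher in AB1-HA, and Bcl2 (1.03), which holds apoptosis back, and the kinase Dapk1 (1.82 by a bound) were higher in LLC. Casp1, the inflammasome caspase, was at 2.43 in AB1-HA and −2.24 in LLC, 25.4-fold higher in AB1-HA, and its neighbour Casp4 at 0.77 and −3.27, 16.5-fold higher. Ripk3, the kinase of necroptosis, was at 1.21 and −4.97, 72.9-fold higher in AB1-HA, whereas its substrate Mlkl (0.14) did not pass 2-fold. Gsdmd (−1.16) and Nlrp3 (−4.56) were also higher in AB1-HA, while Casp12, next to Casp4, was at −0.48. Il18, which Casp1 cleaves, was on the LLC side, as given above. In the complement list, 6 of 14 were higher in LLC, and 1 under normexp, with clusterin (Clu) at −0.28 in AB1-HA and 4.84 in LLC, and C3 within 2-fold (−0.21).

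**Figure D3:**
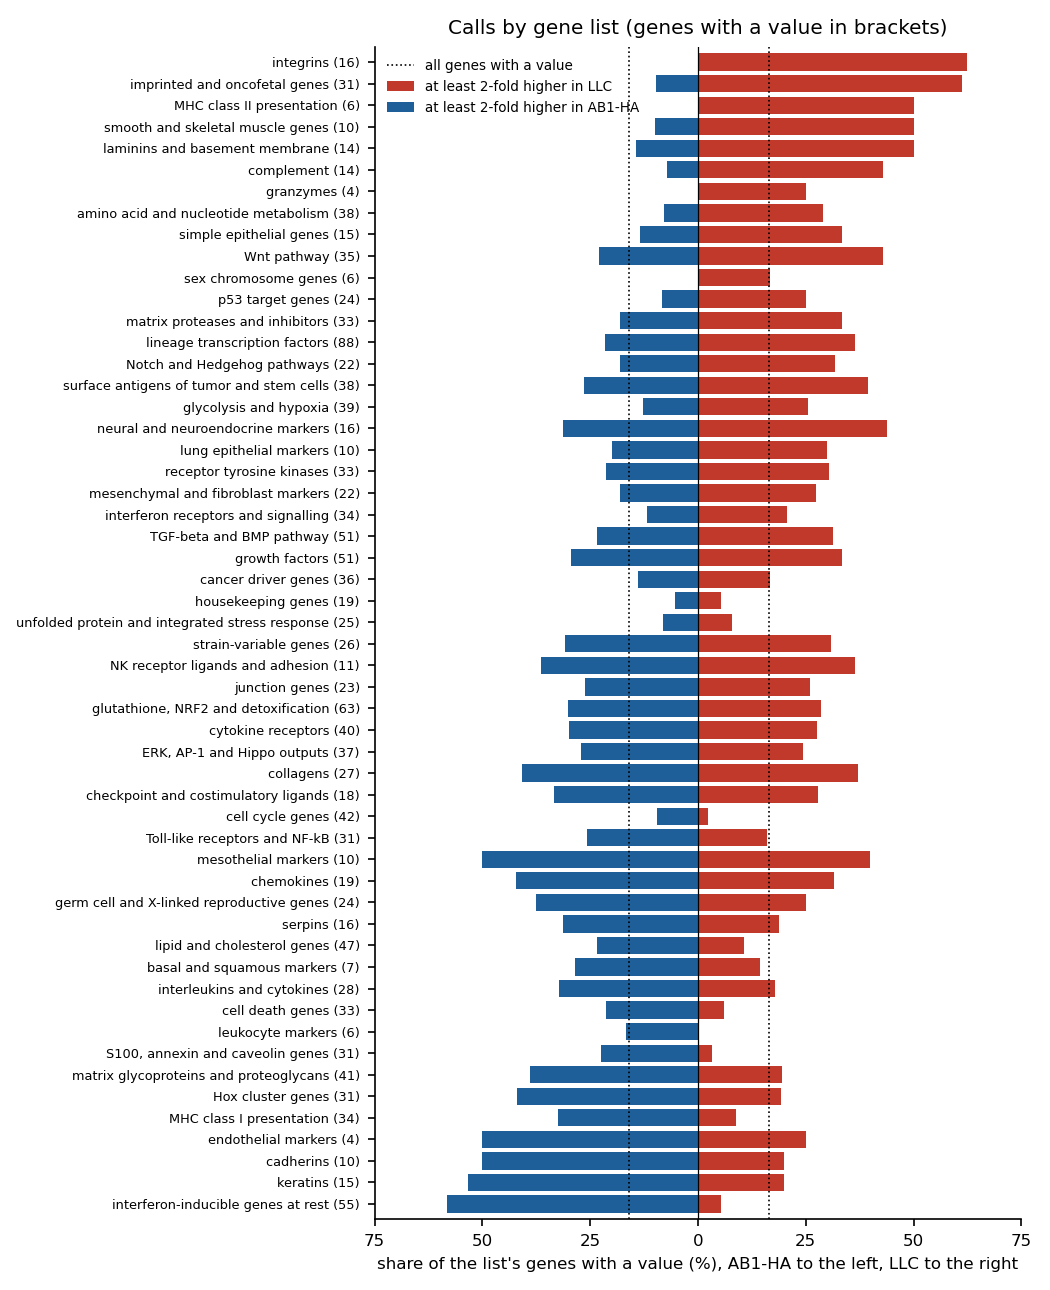
Percent of each list's valued genes that reached 2-fold toward LLC (right) or toward AB1-HA (left), with the number of genes with a value in brackets and the shares over all genes as dotted lines. Integrins and imprinted and oncofetal genes lie farthest toward LLC, and the interferon-inducible genes farthest toward AB1-HA.

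Imprinted genes, which are read from 1 parental copy, and oncofetal genes numbered 31 with a value, 19 higher in LLC and 3 in AB1-HA, with a median of 1.47. Over the 20 measured on both arrays, 8 were higher in LLC and 3 in AB1-HA, and the median was 0.62. Under normexp the counts were 13 and 3 and the median 0.42. Sgce and Mest, read from the paternal copy, were at 1.08 and −0.93 in LLC and below background in AB1-HA, at least 353-fold and 87.9-fold apart. Bounds toward LLC were also found for Peg12 (6.04), Snrpn (5.88), Grb10 (4.46), Peg3 (3.36), Phlda2 (1.86) and Peg10 (1.79). Igf2r, read from the maternal copy, was measured on both arrays (3.86). The oncofetal RNA-binding proteins divided, with Igf2bp3 (6.42 by a bound) and Igf2bp2 (2.50) higher in LLC and Igf2bp1 (−2.14) higher in AB1-HA. Hmga2 was at 1.47 and alpha-fetoprotein (Afp) at −2.50.

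Germ cell and X-linked reproductive genes included 9 of 24 higher in AB1-HA and 6 in LLC. Rhox5, which tumor lines often express, was at 7.50 in AB1-HA and 7.43 in LLC. The Xlr family went both ways, Xlr3b at 5.08 and Xlr at −4.54. Dnmt3l, a cofactor of DNA methylation in germ cells, was 28.5-fold higher in LLC, and Magea10 was at least 80.0-fold higher in AB1-HA. Xist, the RNA that silences an X chromosome in female cells, was at −2.75 in LLC and below background in AB1-HA, at least 24.9-fold apart. The Y-linked Ddx3y, Kdm5d, Uty and Eif2s3y were not well above background on either vehicle array. Of the Y chromosome's genes, 2 had a value, Sly (−2.11), a relative of the X-linked Slx, and Gm20736 (−1.72), both higher in AB1-HA. Slx itself was at −3.17, and a probe can bind RNA of a copy. Whether the signals of Sly and Gm20736 came from a Y chromosome was therefore not tested. Ddx3x, Kdm5c and Eif2s3x, X-linked partners of 3 of the undetected genes, lay within 2-fold. Among 26 genes listed as variable between inbred strains, 8 were higher in each line. Ly6c1 (2.53), Ly6a (1.51) and Qpct (6.997 by a bound) were higher in LLC, and Gbp2b (−2.92) and Trim30d (−3.20) in AB1-HA.

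Of 39 glycolysis and hypoxia genes, 10 were higher in LLC and 5 in AB1-HA. The lactate exporter Slc16a3 was at −2.89 in AB1-HA and 3.35 in LLC, 75.3-fold higher in LLC, while the glucose transporter Slc2a1 (−0.10) and Ldha (−0.21) lay within 2-fold. Car9, a surface carbonic anhydrase and standard hypoxia marker, was at 3.48 and −2.09, 47.4-fold higher in AB1-HA, with Car12 (−2.79) and Ldhb (−2.21). Pfkfb3, which drives glycolysis through fructose-2,6-bisphosphate, was higher in LLC (3.81), as were Pdk1 (1.62) and Slc2a3 (2.18).

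In amino acid metabolism, 11 of 38 genes were higher in LLC and 3 in AB1-HA. The glutamine transporter Slc38a1 was at −3.49 in AB1-HA and 3.69 in LLC, 146-fold higher in LLC. The transporters Slc38a4 (5.49) and Slc7a3 (5.02), Nnmt (4.76), Cda (3.68) and Glul (2.43) were on that side, and Gldc (−2.55) and Upp1 (−2.95) on the other. Of 47 lipid and cholesterol genes, 11 were higher in AB1-HA and 5 in LLC. The cholesterol synthesis genes Fdps (−1.06), Idi1 (−1.26), Lss (−1.58) and Nsdhl (−1.33) were each 2- to 4-fold higher in AB1-HA. The fatty acid carriers were opposed, Fabp5 in LLC and Fabp4 (−4.40) in AB1-HA.

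The detoxification genes were called in both directions, 19 of 63 in AB1-HA and 18 in LLC. The NRF2 targets Srxn1 (2.11), Gclc (1.30), Txnrd1 (1.07) and Hmox1 (1.05), though not Gclm (−0.77), and the glutathione transferases Gstm1 (2.37) and Gsta4 (3.49) were higher in LLC. Aldh3a1, an aldehyde dehydrogenase of cornea and tumors, was at 0.20 in AB1-HA and −7.26 in LLC, 176-fold higher in AB1-HA, with the aldo-keto reductases Akr1c18 (−5.64) and Akr1c13 (−2.73). Of 25 unfolded protein response genes 21 lay within 2-fold, beside 67.5% of all genes with a value, again without matching for signal level. Among surface antigens, 15 of 38 were higher in LLC, such as Alcam (at least 214-fold) and Cd38 (83.8-fold), and 10 in AB1-HA, where Cd34, a sialomucin of progenitor and stromal cells, was at 7.37 against 2.32 in LLC. Of the S100, annexin and caveolin list, 7 of 31 were higher in AB1-HA and 1 in LLC, with the LIM proteins Crip1 (−3.23), Crip2 (−3.55) and Csrp2 (−3.06) among them.

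Differences also ran along chromosomes. Genes on the X chromosome had a median of −0.52 relative to that of all genes, toward AB1-HA, with 152 of 470 higher in AB1-HA (32.3%) and 57 higher in LLC (12.1%). Chromosomes 3 (−0.31), 4 (−0.29), 5 (−0.26), 7 (−0.22), 14 (−0.22) and 6 (−0.18) stood on the same side. Chromosome 17 was farthest toward LLC (0.30), followed by 16 (0.23), 9 (0.22), 18 (0.22) and 2 (0.21). Without a background filter, which lets in genes near background, 10 of the 20 shifts moved by 0.1 or more. That of X was then −0.05, those of chromosomes 3, 4, 5, 6, 7 and 14 lay at −0.04 to −0.02, and those of 17, 18, 16, 9 and 2 were 0.24, 0.14, 0.10, 0.08 and 0.02. On the IFN-γ arrays, which share no array with these, all 20 chromosomes stood on the same side of the all-gene median as with vehicle. When the measured genes of a chromosome were cut in order into blocks of about 75, the blocks of chromosome 3 (7 of 7), 4 (10 of 10), 14 (5 of 5) and X (5 of 5) were all on the AB1-HA side. Those of chromosomes 17 (8 of 8), 1 (8 of 8), 15 (6 of 6), 19 (5 of 5), 16 (4 of 4) and 18 (3 of 3) were all on the LLC side. Chromosomes 5 (9 of 10), 7 (12 of 13) and 6 (5 of 7) had most but not all blocks on the AB1-HA side. Chromosomes 9 (7 of 8) and 2 (11 of 12) had most but not all on the LLC side. These counts use the sign only, and block medians were uneven, from −0.61 to −0.04 on chromosome 4 and from 0.004 to 0.20 on chromosome 19. How far a shift was concentrated in some blocks was not tested. DNA copy number was not measured.

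**Figure D4:**
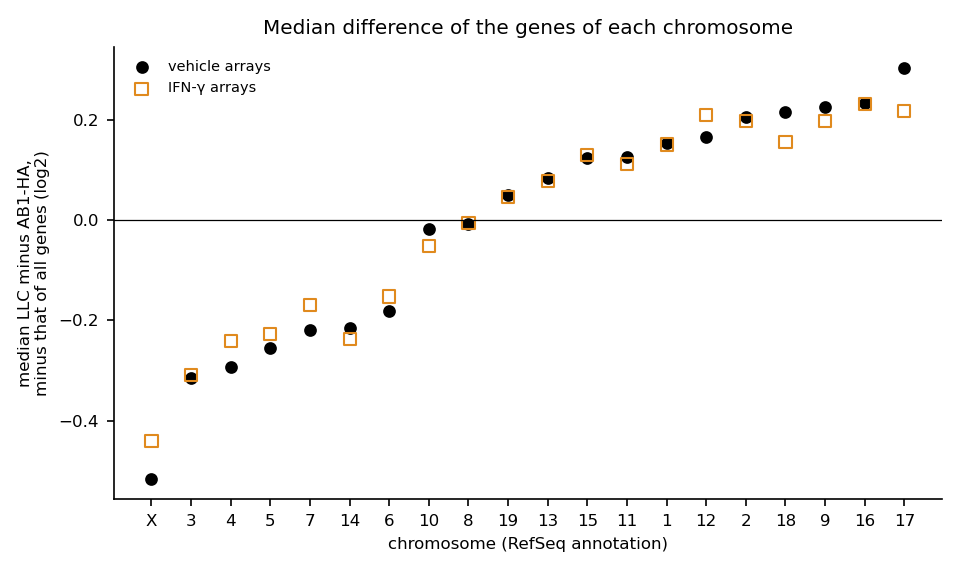
Median LLC minus AB1-HA difference of the genes of each chromosome, minus the median of all genes, on the log2 scale (y axis), for the vehicle arrays (filled circles) and the IFN-γ arrays (open squares). Chromosomes X, 3 and 4 lie lowest and chromosome 17 highest on the vehicle arrays, and both pairs of arrays give the same side for every chromosome shown.

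Windows of 10 neighbouring genes located the densest stretches. The highest window toward LLC, with a median of 2.94, lay on the X chromosome and held Ssx genes (Ssxb1, Ssxb8, Ssxb9, Ssxb10 and Ssx9 at 3.44 to 4.03), cancer-testis genes too alike to separate. In the same window Ebp (−2.57), Porcn (−2.004), Ftsj1 (−1.49) and Fthl17f (−1.995) were higher in AB1-HA. A window on chromosome 9 with a median of 2.31 ran from Nnmt past Ttc12 (8.03 by a bound), Ncam1 and Plet1 (5.12) to Bco2 (3.25), with Zbtb16 (−1.51) higher in AB1-HA. Another on chromosome 9 joined genes of opposite sign, Casp1 and Casp4 on the AB1-HA side and Mmp13, Mmp1b, Mmp3, Mmp1a and Mmp10 on the LLC side. On chromosome 11, Slc16a6 (6.72 by a bound), Map2k6 (6.56) and Sox9 shared a window with Prkar1a (−1.09), which was higher in AB1-HA, and the Rhox2 genes made up the last. Toward AB1-HA, the lowest window, at −3.13, held Slx and its near-identical copies on the X chromosome. Others were the Rtl8 genes with Xlr on X, where Rtl8c was at −4.20 and Fam122b (1.63) went the other way, and Hoxa9 to Hoxa11 with Scrn1 (−5.42) on chromosome 6. The remaining windows held Faxc, Fhl5 (−4.41) and Manea (−6.74 by a bound) on chromosome 4, and Ifit1, Ifit3 and Ifit3b with Slc16a12 and Ankrd1 on chromosome 19, where Ifit2 was within 2-fold and Ifit1bl2 (1.11) higher in LLC.

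The IFN-γ arrays gave a second pair on which to read the same lines. Of 13585 genes with a value on both pairs, 2252 were higher in LLC with vehicle, and 1834 of them (81.4%) were at least 2-fold higher there on the IFN-γ pair too, where 15.5 percent of genes were. Of 2171 higher in AB1-HA with vehicle, 1488 (68.5%) were so again, where 13.2 percent of genes were. Over 11993 genes measured on all 4 arrays, Pearson's r between the 2 differences was 0.931, a description across genes that share their lines. Col1a2 was at −11.85 on the second pair, Msln at −9.58, Krt18 at 10.09 and Sox2 at −8.49 by a bound.

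Several interferon-inducible genes stood closer on the second pair. Oas1a moved from −7.72 to −4.24, Zbp1 from a bound of −8.29 to −2.74, Ifi47 from −5.07 to −0.85 and Cxcl10 from −5.43 to −0.55. Ifi27l2a (−8.49), Oasl1 (−7.83) and Ifit1 (−6.65) kept differences of a like size. Gbp2b, near background with vehicle, went the other way, from −2.92 to −11.86, with levels of 5.53 in AB1-HA and −6.33 in LLC under IFN-γ. The lines differed 2-fold or more with opposite signs on the 2 pairs for 6 genes, of which 3 were higher in AB1-HA with vehicle. Ccl5 was the largest of these, at −0.30 in AB1-HA and 0.79 in LLC under IFN-γ.

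**Figure D5:**
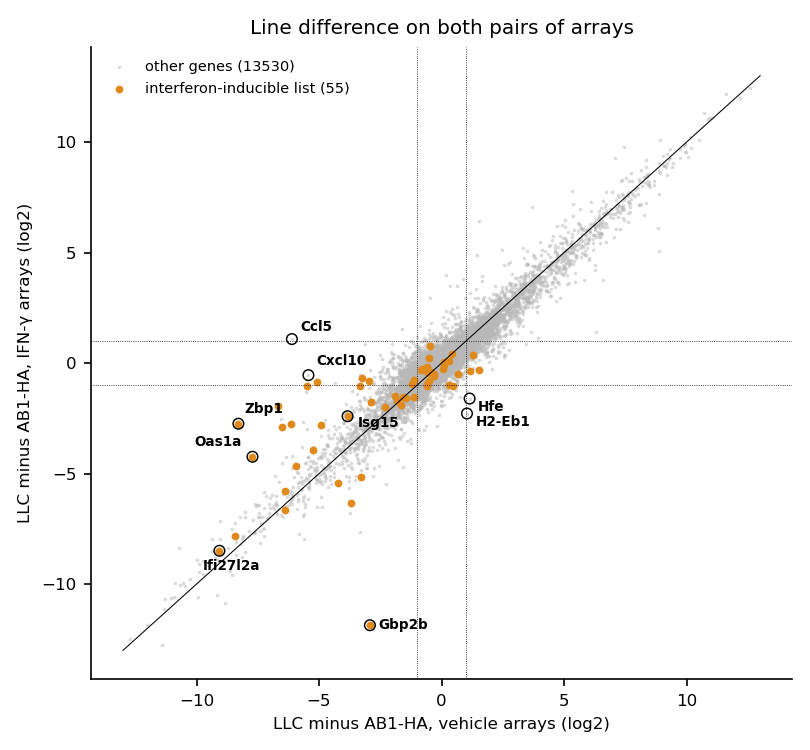
LLC minus AB1-HA difference of each gene on the vehicle arrays (x axis) and the IFN-γ arrays (y axis), log2, with the 55 interferon-inducible genes in orange and 2-fold as dotted lines. Most genes lie along the line of equal differences, Ccl5, H2-Eb1 and Hfe change sides, and Gbp2b lies far below the line.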

How the data were processed

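RNA of 4 cultures was labelled with Cy3 from 0.15 ug by a low input amplification kit and hybridised to 1-colour Agilent whole mouse genome arrays, 1 array per group on 1 slide, per the labels' protocols and the file headers. The labels do not state whether a culture was pooled from several dishes. The deposited spot intensities were read, background-subtracted and processed by the authors with Feature Extraction 10.7.1.1, per the file headers. The deposited value table holds log2 values of the same arrays, which matched the scaled and centred scanner signals at r of 0.999 or more, with column medians of 0.11, −0.13, −0.08 and 0.08. It served as an alternative only, and its centring is inferred from that match.

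Here the processed signal of each gene probe was divided by the 75th percentile of its array (1380 for AB1-HA and 1598 for LLC with vehicle) and taken to log2. Outlier spots, 166 to 201 of 43020 per array, were left out, control spots were not used, and no spot was saturated. Of the gene probes, 57.5% were well above background for AB1-HA and 58.1% for LLC with vehicle. Precision is limited by the number of arrays. Probes were named by unversioned accession through RefSeq (GRCm38.p6), which named 26581 and left 12848 unnamed, and a gene is read from its probe with the highest mean level over both vehicle arrays, among those well above background on 1 of them. Of 3616 genes with 2 or more valued probes, 887 had probes at least 2-fold apart and 33 had probes at least 2-fold apart in opposite directions.

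No p-value was computed, since every group has 1 array. The 54 gene lists, with 1793 genes named on the array, overlap. The members and lists were chosen with earlier results of these data known, and the chromosome blocks and the motif search were added after the data were seen. Genes are named by this rule: the 15 largest measured differences and the 12 brightest bounds past 2-fold in each direction, list members past 2-fold, core members at any value, and genes of the 5 highest and 5 lowest windows. Some genes that meet it are not reported here. Genes outside it, such as neighbours of Mtap and partners of Y-linked genes, were picked after their values were seen. The calling of folds was tested on simulated data. There the simulated arrays shared the same background marks, so no bound could arise and the bounds were not tested. Python 3.11.15, numpy 2.4.6, pandas 2.3.3, matplotlib 3.10.9, R 4.3.3 and limma 3.58.1 were used. Alternatives covered scaling, background correction, filters, the choice of probe and the threshold.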

Additional observations from a re-analysis of the deposited data

Results flagged for a closer look

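For 6 genes, the line difference was at least 2-fold in opposite directions on the vehicle and the IFN-γ pair, and this change was not tested, with 1 array per group. Ccl5 was at −6.11 (LLC minus AB1-HA, log2) with vehicle and at 1.08 with IFN-γ. H2-Eb1, a class II chain, was at 1.04 with vehicle and at −2.28 with IFN-γ. Hfe, a class I-like regulator of iron uptake, was at 1.14 with vehicle and at −1.61 with IFN-γ. Under normexp the vehicle differences of H2-Eb1 (0.34) and Hfe (0.88) did not reach 2-fold. Mlph, a melanosome transport protein, was at 1.05 with vehicle, −0.055 under normexp, and at −1.28 with IFN-γ. By bounds, the B cell receptor gene Tnfrsf13c went from −1.62 to 1.56 and the enzyme gene Abat from −1.24 to 1.002.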

How the results depend on the processing

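Scaling to the array median, to probes above background on all 4 arrays, by quantiles or by cyclic loess, the deposited value table, the mean over probes, outlier spots kept and both changes of the background filter kept the 2 counts within 1.5 times, at 1558 to 2716 for LLC and 1685 to 2887 for AB1-HA. Cyclic loess moved the median of all genes from −0.05 to 0.10 and the counts to 2630 and 1768. Under normexp, run on median spot signals, the counts were 1494 and 1408, and 2126 in place of 3322 genes differed the same way on both pairs. At a 4-fold threshold these were 1132, 832 and 1608. Of the named genes, 49 fell under 2-fold with normexp, among them Cd274 (0.37), Gbp2b (−0.80), Timp3 (0.34) and Irf5 (0.75), and 7 with the mean over probes. With the mean over probes Gbp6 (−0.77) and Kdr (0.067) reversed, and with normexp Mlph (−0.055). Without a background filter the median of all genes was itself −0.24, and 16 of 54 list medians turned from above to below 0. Among them were the laminin list (−0.29), the muscle list (−0.24) and MHC class II (−0.22). So were natural killer ligands (−0.25), Notch and Hedgehog (−0.16) and receptor tyrosine kinases (−0.21). These medians lay near that of all genes and are no shift toward AB1-HA relative to it. Cyclic loess turned 10 from below to above 0. The cause was not tested. No paired analysis was possible because each group has 1 array and the labels carry no replicate numbers. Low signals limit the bounds, which rest on the lowest signal above background.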
